A study of Homo sapiens with 20 samples.

Results

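The entries described here are transcript models that carry an identifier but no gene, symbol or class in the deposited tables, that are at least 1000 nucleotides long, and that collected at least 100 estimated reads summed over all 20 libraries. They number 29666 of the 334224 unnamed entries of that length, or 8.88%, in tables of 921552 entries in all. Reads were measured by total RNA sequencing of exosomes, vesicles that cells release, and of the cores of cytoplasmic RNA granules, which are condensed bodies of RNA with bound protein. Both came from HEK293, an established human embryonic kidney line. The cells were controls or were HD-induced as a model of Huntington's disease, and the sources used here do not say how the state was brought about. The 4 groups of 5 biological replicates were control exosomes, HD exosomes, control granules (SG in the sample titles) and HD granules, and no agent or allele is named for any of them. A share of reads below is a percent of all estimated reads of the library, and a level is in RPM, reads per 1000000 estimated reads of the library. The design text asks how the RNA content of the compartments compares in the normal and the Huntington state.

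An RNA quantifier can place a read only on the sequences it is given. Catalogues of noncoding RNA hold many overlapping models of the same locus, including ribosomal precursors, spacers and fragments beside the mature RNAs, and a read that matches several of them is divided among them by a statistical estimate. Ribosomal RNA is made as a long precursor that is cut into the 18S, 5.8S and 28S RNAs, and the spacers between and before them are removed in the nucleolus. Long noncoding transcripts and transcripts that keep an intron are often held in the nucleus, while exosomes are known to carry ribosomal RNA fragments and other small RNA. The tables do not pair these entries with names, so each is called here by its length, and no sequence of an unnamed entry is printed.

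The choice of entries used the reads themselves. Summed reads ranged from 100 to about 2918610 per entry, with a median of 261.0 and quartiles of 155 and 553, and entry length ranged from 1000 to 347133 nucleotides with a median of 2746.5. The nearest entries inside the limit, of 1485 and 3529 nucleotides, held 100 reads each, and the nearest outside it, a pair of 3571 nucleotides, held 99.999 each. Granule libraries supplied 74.4% of the reads on these entries and 76.2% of all reads. From the exosome libraries alone 25571 of the entries would have missed the limit, against 2312 from the granule libraries alone. Most of them are thus in the set through granule reads, and counts over the whole set describe it and support nothing about compartments.

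The entries held 62.4 M of 390 M reads (M, mega-reads), or 16.0%, and 96.5% of the reads on all unnamed entries of this length. The reads were concentrated: 14 entries held at least 1000000 reads and 3916 held at least 1000, and the leading 100 held 67.9% of the reads of the set. Many entries could not be told apart. Of the 29666, 14806 formed 7403 pairs with the same length and the same reads in every library to within 0.001 reads, and 14904 had a partner of the same length whose reads differed by at most 1% in total. There were also 368 that matched a named transcript in length and in the reads of every library, among them 129 retained-intron transcripts, 84 long noncoding RNAs and 73 models awaiting experimental evidence (class TEC).

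These matches tie an entry to a named model of equal length and equal reads, whose reference sequence can be shown. The 6 retained-intron matches with the most reads were looked up in GENCODE release 29 (GRCh38). They were set against the coding, processed and long noncoding transcripts of the gene. Of the 6, 4 span an intron that such transcripts remove. The models of 3 genes are shown. That of TAF15, which spans an intron of 395 bases, is not shown. The entries and genes of all 4 are compared further on. SNHG16, a host gene of small nucleolar RNAs, has a single-exon model of 2665 nucleotides at chr17:76557769-76560433 on the plus strand that spans its introns. EIF4A3, an RNA helicase of the exon junction complex, has a model of 3593 nucleotides at chr17:80135255-80139487 on the minus strand. FAU, which encodes a ubiquitin-like protein fused to a ribosomal protein, has a model of 1484 nucleotides at chr11:65120634-65122117 on the minus strand. Each line runs 5′ to 3′ across the start of a retained intron, with exon bases in lower case and intron bases in capitals.
SNHG16: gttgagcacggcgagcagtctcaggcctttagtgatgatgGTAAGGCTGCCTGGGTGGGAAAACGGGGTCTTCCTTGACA
EIF4A3: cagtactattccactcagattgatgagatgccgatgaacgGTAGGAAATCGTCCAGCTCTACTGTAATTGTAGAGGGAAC
FAU: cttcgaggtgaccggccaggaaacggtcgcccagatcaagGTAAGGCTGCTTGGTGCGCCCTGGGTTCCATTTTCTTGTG

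The introns shown are 112, 497 and 94 bases long, at chr17:76557858-76557969, chr17:80135507-80136003 and chr11:65121645-65121738, and each opens with GT. They are removed in 1, 4 and 7 coding, processed or long noncoding transcripts of the respective gene, and other classes were not counted.

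Depth and single libraries set limits that recur below. Depth ran from 8.99 to 15.6 M reads in control exosomes, from 17.4 to 38.4 M in control granules and from 26.96 to 35.8 M in HD granules. HD exosomes were uneven: replicates 1 and 2 held 12.1 and 14.4 M, replicates 3 and 5 held 1.98 and 4.25 M, and replicate 4 held 1074 reads, so that an absent entry could still lie at 2793 RPM there (3 counts). The 6 HEK293 markers summed to 516 to 649 RPM in control exosomes, 123 to 931 in HD exosomes, 172 to 371 in control granules (SOX11 at 0) and 272 to 593 in HD granules (NEFM at 0). The 931 RPM is the level of 1 read in HD exosome 4, and the 123 is that of HD exosome 2. Markers of other sources were read too: 5 keratin and desmosome genes summed to 87.3 to 947 RPM over the 20 libraries, with KRT14 at 0 in HD exosomes. The 7 blood, serum and liver markers summed to 40.7 to 133 RPM in control exosomes, 0 to 1326 in HD exosomes, 7.11 to 23.6 in control granules and 4.16 to 53.7 in HD granules. The 5 leukocyte markers stayed at 17.9 RPM or below, with CD3E at 0 in all groups but HD exosomes, and the 5 markers of fibroblasts and endothelium at 74.4 or below. The part of these differences in the results below was not tested.

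Control exosome libraries placed 7.05, 8.13, 11.5, 11.0 and 11.4% of their reads on the entries (mean 9.81% ± 2.07, SD, n = 5). Control granules placed 14.3, 29.9, 13.6, 15.3 and 10.5% (16.7% ± 7.58, SD, n = 5), and HD granules 12.5, 11.0, 25.1, 10.4 and 8.40% (13.5% ± 6.66, SD, n = 5). HD exosomes placed 11.3, 57.5, 11.3, 7.15 and 10.2% (19.5% ± 21.3, SD, n = 5). No test was made between the groups, since these reads chose the entries. The groups overlapped, and 3 libraries stood well above the rest of their groups: HD exosome 2, control granule 2 and HD granule 3. In the shallow HD exosome 4, the share had a 95% Wilson interval of 5.77 to 8.87%, which covers counting error only. In bulk RNA, fewer particles that carry an entry and less of it per particle cannot be told apart. Without HD exosome 2 the HD exosome mean was 9.98%, and without control granule 2 the control granule mean was 13.4%.

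**Figure D1:**
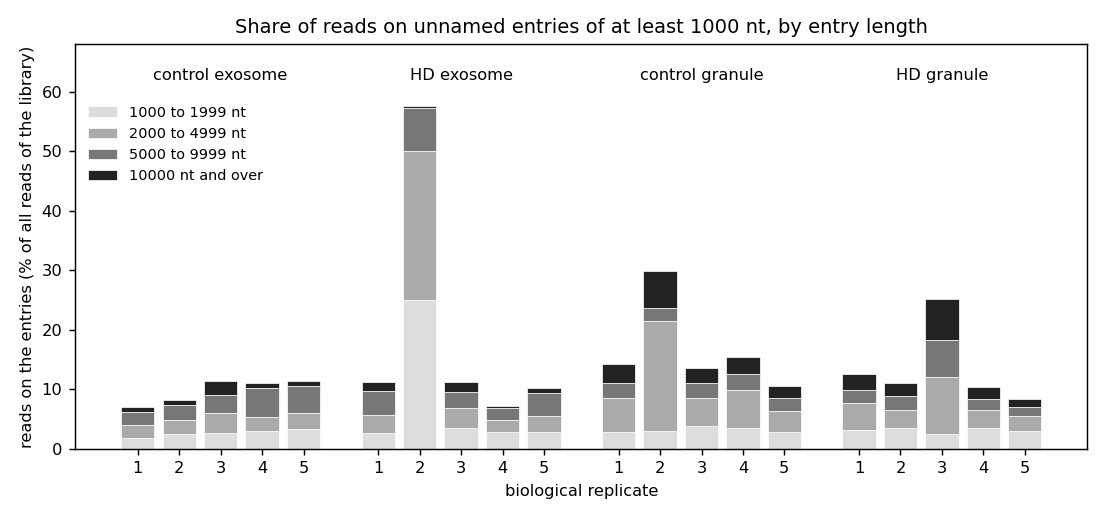
Stacked bars give the percent of all reads of each library (y axis) on the unnamed entries, split by entry length, for 5 replicates in each of 4 groups (x axis). HD exosome 2 reached 57.5%, control granule 2 reached 29.9% and HD granule 3 reached 25.1%, while the other 17 libraries lay between 7.05 and 15.3%.

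The entries did not share reads evenly by length. In control exosomes the entries of 5000 to under 10000 nucleotides held 2.13 to 4.82% of reads and those of 10000 or more held 0.729 to 2.41%. In control granules the corresponding ranges were 2.10 to 2.83% and 1.98 to 6.27%. Entries of 2000 to under 5000 nucleotides held 2.27 to 3.44% in control exosomes and 3.54 to 18.5% in control granules, with the highest value in control granule 2.

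Ribosomal sizes accounted for much of the sum. The RefSeq gene table of GRCh38.p14 lists 5 copies of the 45S precursor gene, 13309 to 13373 nucleotides long, and their parts gave 6 length windows, each widened by 1%. The windows were chosen after the reads were seen, and a length match does not identify a sequence. Together 1998 entries, 6.73% of the set, fell in a window. The window of the whole precursor, 13175 to 13507 nucleotides, held 55 entries and 5.92 M reads, against 0.108 M on 129 entries in flanking lengths. The window of the 5′ external spacer, 3594 to 3695 nucleotides, held 403 entries and 10.7 M reads, against 0.811 M on 738 flanking entries. The window of the second internal spacer held 1.98 M reads against 0.808 M in its flanks, that of 28S held 2.82 M against 0.351 M, and that of 18S held 1.99 M against 1.44 M. The first internal spacer's window, with 0.155 M reads against 0.823 M in its flanks, did not stand out. One entry of 13351 nucleotides and one of 13373 had exactly the lengths of RNA45SN1 and RNA45SN4, which are ribosomal precursor genes. Named genes of the ribosomal RNA classes held at most 0.0202% of the reads of any library.

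**Figure D2:**
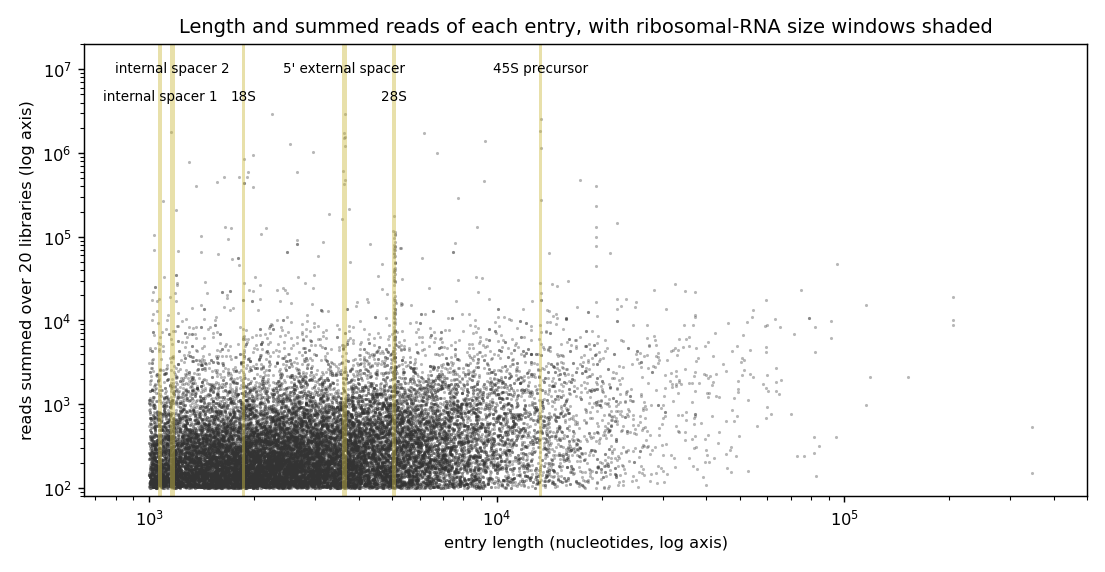
Each point is one of the 29666 entries, by length (x axis, log) and reads summed over 20 libraries (y axis, log), and the shaded bands are the 6 ribosomal size windows. Columns of high points stand in the bands of the 5′ external spacer, 28S and the 45S precursor.

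The windows did not all lie the same way between compartments. In 28S-sized entries, control exosomes placed 1.36 to 3.43% of reads and control granules 0.0756 to 0.477%, with no overlap. HD exosomes placed 1.20 to 2.72% and HD granules 0.0551 to 1.09%, also without overlap, and HD granule 3 was the highest of its group. Entries the size of the second internal spacer went the other way, at 0.0464 to 0.116% in control exosomes and 0.353 to 1.33% in control granules, and at 0 to 0.0676% in HD exosomes and 0.156 to 0.734% in HD granules. In the first internal spacer's window, control exosomes placed 0.0192 to 0.0230% and control granules 0.0451 to 0.0503%. In HD-induced cells this window overlapped, at 0.00399 to 0.0931% in exosomes and 0.0326 to 0.0547% in granules. The window of the 5′ external spacer overlapped, at 0.456 to 1.69% in control exosomes and 0.886 to 13.4% in control granules, as did the precursor's window, at 0.345 to 2.06% and 0.425 to 5.37%. The 18S window overlapped too, at 0.353 to 1.14% and 0.206 to 0.414%. These sums were chosen with the values known and carry no test.

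**Figure D3:**
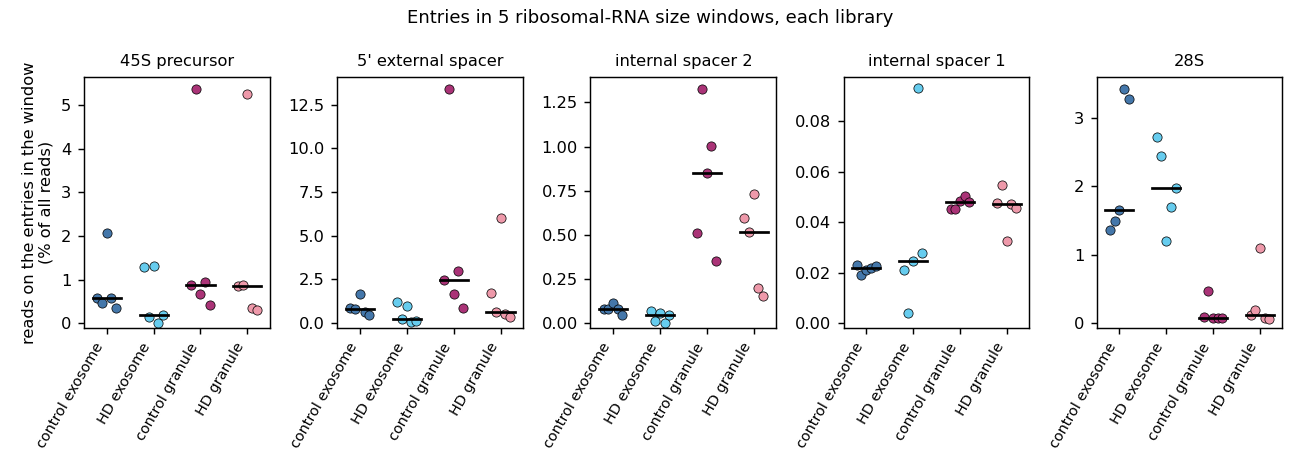
Points give each library's percent of all reads on the entries in a size window (y axis, a scale of its own in each panel) by group (x axis), and lines mark the median of 5. The 28S panel has exosomes above granules, and the panel of the second internal spacer has granules above exosomes in both cell states.

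Single entries of the 28S window were counted as well. Of its 239 entries tested in control cells, 61 were higher and 97 lower in granules (edgeR's quasi-likelihood test, Benjamini-Hochberg adjusted p under 0.05), with a median log2 fold change of -0.84. Of all rows tested in that comparison, 33.1% were called higher and 24% lower in granules. In HD-induced cells, 39 of 219 were higher and 48 lower, against 17.6% and 3.28% of all rows. Among entries with 100 reads in each compartment, 6 of 134 in the 28S window were higher and 91 lower in control granules, and 4 of 122 and 46 in HD granules. Entries of that depth outside all windows were higher in 28.5% and lower in 16.7% in control cells, and in 13.1 and 3.52% in HD-induced cells. In the 18S window, 4 of 43 entries of that depth were higher and 17 lower in control granules, and 3 of 44 and 12 in HD granules. Over all tested entries of the 18S window, 60 of 154 were higher and 24 lower in control granules, and 24 of 143 and 16 in HD granules. In the precursor's window, 10 of 18 entries of that depth were higher and 1 lower in control granules. In HD granules 7 of 18 were higher and 1 lower. Over all tested entries of the precursor's window, 16 of 36 were higher in control granules and 10 of 35 in HD granules, with 1 lower in each. Those shares, 44.4 and 28.6% higher, lay near the 47.9 and 27.6% outside all windows. In the second internal spacer's window, 72 of 143 entries were higher and 15 lower in control granules, and 45 of 152 were higher and 0 lower in HD granules. These shares, 50.3 and 29.6% higher, lay near the 47.9 and 27.6% of entries outside all windows, and with 100 reads in each compartment 10 of 40 were higher and 10 lower in control granules. One entry of 1157 nucleotides held 89.8% of this window's reads. The rest of the window held 0.0267 to 0.0311% of reads in control exosomes and 0.0415 to 0.0697% in control granules, still without overlap, while the HD groups then overlapped.

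The 10 entries with the most reads included both directions. The 1157-nucleotide entry, in the second internal spacer's window, held 496, 520, 895, 475 and 185 RPM in control exosomes and 4494, 12857, 7809, 9362 and 2901 in control granules. All granule libraries were above all exosome libraries, and the log2 fold change was 3.57 (SE 0.60, edgeR adjusted p = 0.000515). HD exosomes held 370, 48.1, 205, 0 and 28.1 and HD granules 5358, 4491, 6983, 1344 and 869, again without overlap (log2 fold change 4.18, SE 1.03, edgeR adjusted p = 0.0134).

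The 9251-nucleotide entry lay the other way, at 2256, 4647, 5555, 8200 and 7873 RPM in control exosomes against 263, 1124, 429, 498 and 308 in control granules. The groups did not overlap (log2 fold change -3.64, SE 0.61, edgeR adjusted p = 0.000507). HD exosomes held 6619, 47636, 5518, 0 and 5826 and HD granules 781, 1054, 2705, 388 and 213, and there the test did not pass (edgeR adjusted p = 0.0617). The library at 0 was the shallow HD exosome 4.

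The 2249-nucleotide entry had the most reads of all, and 92.8% of them came from HD exosome 2. Control exosomes held 893, 1723, 1625, 2732 and 4841 RPM and HD exosomes 3006, 187445, 3858, 4545 and 1493. Control granules held 49.1, 298, 17.1, 18.7 and 16.6 and HD granules 50.2, 183, 200, 50.4 and 29.0. Exosome libraries were above granule libraries in both states, with a log2 fold change of -4.85 in control cells (SE 1.13, edgeR adjusted p = 0.00374) and -10.98 in HD-induced cells (SE 3.09, edgeR adjusted p = 0.0246). The call in HD-induced cells was lost without any 1 of HD granules 1, 2, 4 and 5.

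Entries in the window of the 5′ external spacer moved with single libraries. The 3659-nucleotide entry held 1711, 1259, 2015, 1530 and 817 RPM in control exosomes and 7074, 40217, 2855, 6936 and 1509 in control granules. The groups overlapped through control granule 5, and the call (log2 fold change 2.95, SE 0.95, edgeR adjusted p = 0.0204) was lost without control granule 2, where the log2 fold change was 1.00, and also without control exosome 2 or 5 (2.78 and 2.70). Entries of 3636 and 3627 nucleotides were likewise called higher in control granules, at log2 fold changes of 2.88 (SE 0.81) and 3.04 (SE 0.77). The 3666-nucleotide entry was not called: control exosomes held 2209, 2356, 7173, 1442 and 1161, control granules held 2226, 18988, 1501, 1943 and 759, and without control granule 2 the log2 fold change of 0.80 turned to -1.51, which was then called.

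No leading entry of whole-precursor size passed the test between compartments, although other entries of that window did, as counted above. The 13351-nucleotide entry held 507 to 10456 RPM in control exosomes and 913 to 28049 in control granules (log2 fold change 1.09, SE 1.21, edgeR adjusted p = 0.46). The 13317-nucleotide entry held 1297 to 3995 and 2007 to 14287 (edgeR adjusted p = 0.142), and the 13373-nucleotide entry 950 to 6028 and 894 to 8688 (edgeR adjusted p = 0.912). In each of them control granule 2 and HD granule 3 were the highest granule libraries, and control exosome 3 was the highest control exosome library. The 6152-nucleotide entry held 1610, 2155, 35160, 1480 and 1080 in HD granules, so that HD granule 3 alone supplied 72.8% of its reads.

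**Figure D4:**
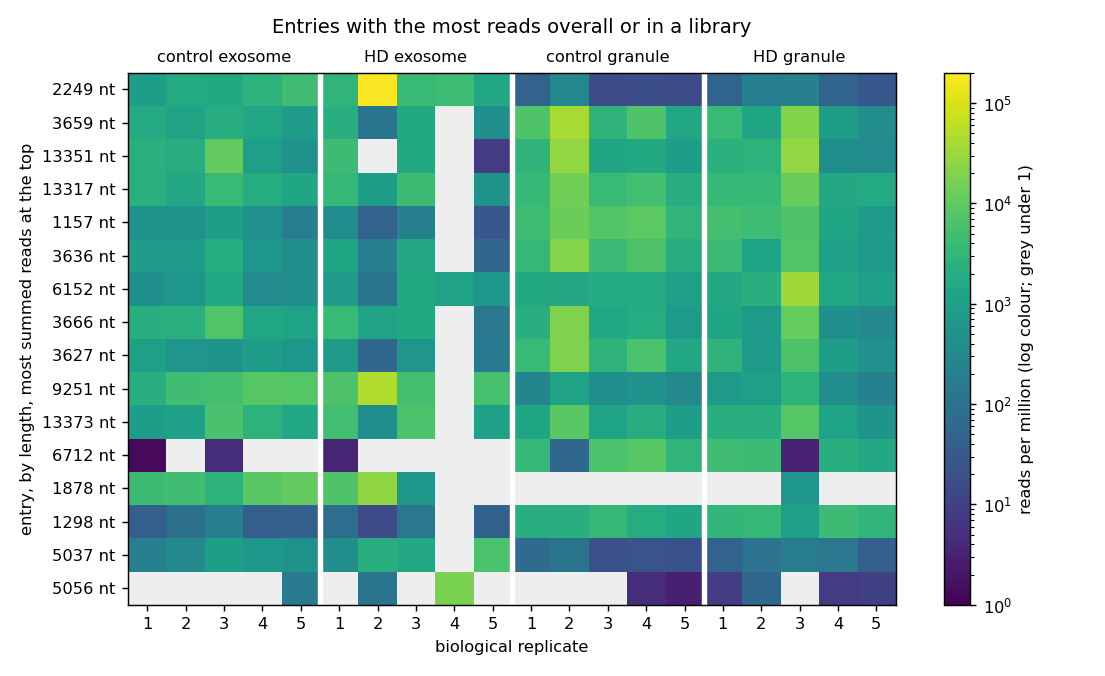
Colour gives RPM (log scale, grey under 1) of the 10 entries with the most reads and of each library's leading entry (y axis, by length) in 20 libraries (x axis). The 6712- and 1298-nucleotide entries are high in granules and the 1878-nucleotide entry in exosomes, and single bright cells mark HD exosome 2 at 2249 nucleotides and HD granule 3 at 6152.

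Across all entries, granules were compared with exosomes first in control cells. Of 13376 entries that passed the filter on low counts, 7152 were called (53.5%), against 57.1% of all rows. In granules 6323 were higher and 829 lower, or 47.3 and 6.20%, against 33.1 and 24% of all rows. The median log2 fold change was 1.31 over the entries and 0.37 over all rows. Counting each pair once left 4622 higher and 687 lower. The set was chosen on reads that came mostly from granules, and among the 3773 entries that reached 100 reads in each compartment the counts lay nearer to each other: 984 of 3592 tested were higher and 685 lower, or 27.4 and 19.1%, with a median log2 fold change of 0.13. The share called higher grew with length over the whole set, from 1532 of 3558 entries under 2000 nucleotides (43.1%) to 735 of 1335 of 10000 or more (55.1%). The share called lower was 8.68, 5.57, 6.76 and 1.05% in the 4 length classes from short to long. These shares by length describe a set chosen mostly through granule reads. They were not counted for entries with 100 reads in each compartment or for all rows.

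In HD-induced cells 3817 of 13280 tested entries were called (28.7%), against 20.9% of all rows. Of these, 3622 were higher in granules and 195 lower, against 17.6 and 3.28% of all rows, and the median log2 fold change was 1.33 against 0.58. Among the entries with 100 reads in each compartment, 422 of 3371 were higher and 173 lower (12.5 and 5.13%). The count of 3817 moved with single libraries, and so did the number of entries that passed the filter. It went to 6075 of 20219 tested without HD exosome 1 and 6320 of 19885 without HD exosome 5. Without HD granules 1, 2, 4 and 5 in turn it went to 2040 of 10882, 1990 of 11144, 2034 of 11160 and 2349 of 11435. It was 6558 of 22741 without HD exosomes 2 and 4 and HD granule 3. DESeq2 called 862 of 13280, with 717 higher and 145 lower.

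The comparisons in control and in HD-induced cells share no library. Of the 11013 entries tested in both, 2582 were called higher in granules in both, which is 40.8% of those called higher in control cells and 71.3% of those in HD-induced cells. Another 152 were lower in both, or 18.3 and 77.9% of the respective lists. None was higher in control and lower in HD-induced granules, and 1 went the opposite way. Spearman's rho of the fold changes was 0.73 across entries, which are not independent replicates and include the indistinguishable pairs. The reads of both states chose the set, mostly through granules, so the choice itself favours a shared higher direction in granules. The overlap over all rows was not counted, and these values describe the set only.

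**Figure D5:**
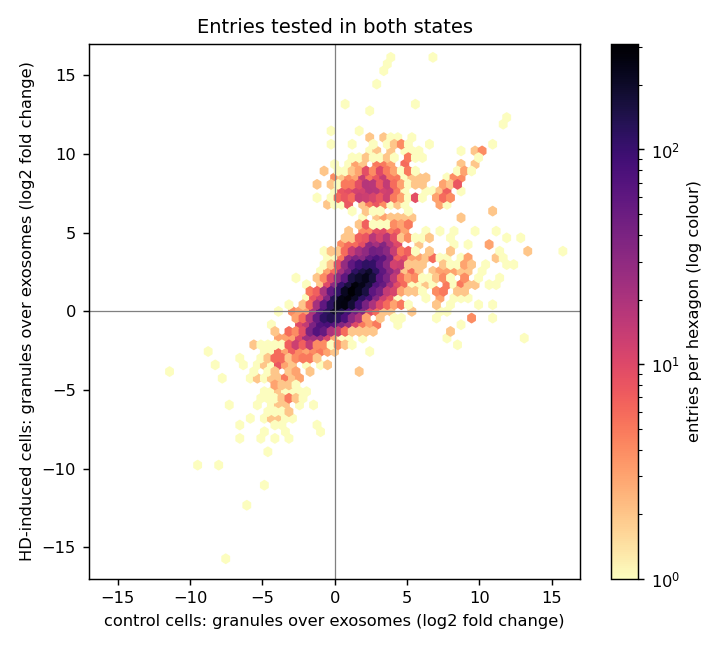
Hexagons count the 11013 entries tested in both states by their log2 fold change of granules over exosomes in control cells (x axis) and in HD-induced cells (y axis). Most lie along the diagonal and right of zero, and detached clusters at high values hold entries with no read in one exosome group.

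The entries that stood furthest apart in control cells were read in only one compartment. By the naming rule, the entries highest in granules were those of 5302, 2660 (a near-identical pair), 4662 and 59435 nucleotides. The 5302-nucleotide entry (URS0000D5B15C_9606) held 521, 237, 432, 231 and 358 RPM in control granules and no read in any control exosome library, so it was at least 6494-fold higher, with a floor of 3 counts over the group. In HD-induced cells it held 72.2 in HD exosome 3 and was at 0 in HD granule 3, and was not called there (edgeR adjusted p = 0.16). The 2660-nucleotide pair held 297, 133, 344, 343 and 421 RPM in control granules and no read in any exosome library of either state, at least 5874-fold higher in control cells and 2839-fold higher in HD-induced cells. It was at 0 in HD granule 3, while the other HD granules held 276 to 404. Granule reads alone brought the pair into the set, so these folds describe it only. An exact 0 can reflect how the estimate divided the reads among like entries, and this was not tested.

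In HD-induced cells the rule gave 4 entries of 19271, 19277, 19280 and 19282 nucleotides, which are alike in length and level, and 1 of 22170. The 19271-nucleotide entry held 582, 459, 119, 840 and 421 RPM in HD granules and no read in HD exosomes, at least 5229-fold higher. Control exosomes held 41.6, 0, 17.6, 46.6 and 0 and control granules 473, 248, 473, 408 and 391, so the granule libraries were above the exosome libraries there too (log2 fold change 3.73, SE 1.20, edgeR adjusted p = 0.0206). The 22170-nucleotide entry held 845, 356, 3.77, 598 and 351 in HD granules, with HD granule 3 far below the others, and no read in HD exosomes.

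The leading entry of control granule 5 was of 6712 nucleotides (URS00019BDBE3_9606), at 3631, 61.4, 6401, 8341 and 2944 RPM in control granules and at most 4.91 in control exosomes. Its log2 fold change was 10.99 (SE 1.61, edgeR adjusted p = 0.000204), and the control groups did not overlap. In HD granules it held 4844, 4344, 3.31, 2173 and 1570 and in HD exosomes at most 3.59 (log2 fold change 10.76, SE 2.03, edgeR adjusted p = 0.00508), so the low libraries were control granule 2 and HD granule 3, which were also the highest granule libraries of their groups in the windows of the precursor, the 5′ external spacer, 28S and the second internal spacer. In the 18S window the same libraries were the lowest of their groups, at 0.206 and 0.153%. The 1298-nucleotide entry was high in every granule library, at 1330 to 3514 in control and 966 to 4358 in HD granules, against at most 187 in any exosome library (log2 fold change 4.36, SE 0.56, and 5.25, SE 0.78; edgeR adjusted p = 8.01e-05 and 0.00354).

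By the naming rule, the entries with the largest fold changes towards control exosomes were of ribosomal size for the most part. Of all 829 entries called lower in control granules, 671 lay outside every size window, as did 12507 of the 13376 tested. The 1878-nucleotide entry (URS00019C4BBE_9606), in the 18S window, held 4232, 4651, 2720, 8862 and 10634 RPM in control exosomes and no read in control granules, at least 259384-fold lower in granules. HD exosomes held 6833, 26705, 628, 0 and 0, and of the HD granules only replicate 3, at 600, held any. This entry held 42.3% of the reads of the 18S window, and the rest of the window lay the other way, at 0.0737 to 0.0817% of reads in control exosomes and 0.206 to 0.414% in control granules. One 5071-nucleotide entry held 1481, 924, 899, 984 and 1920 in control exosomes and none in control granules, at least 55192-fold lower in granules, and a second of that length was at least 7664-fold lower. The 1055-nucleotide entry, outside the windows, held 54.5, 181, 364, 52.6 and 59.5 in control exosomes, up to 282 in HD exosomes and no read in any granule library. Entries without a granule read are in the set through exosome reads alone. An exact 0 for one of several entries of a size can reflect how the estimate divided the reads, and this was not tested.

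In HD-induced cells an entry without a read in HD exosome 4 could not pass the rule in the direction of exosomes. Only 36 entries had a read there. Of all rows, 0.147% had every exosome library above every granule library, against 19.3% in control cells. The number passing is therefore limited by that library, and it was 2. One was the 2249-nucleotide entry, and the other, of 1463 nucleotides, held 1.26, 2.06, 1.49, 931 and 1.82 RPM in HD exosomes and 0.0544 to 0.962 in HD granules. The value of 931 came from HD exosome 4, where it is 1 read of 1074, and the call was lost without HD exosome 2 or any 1 of HD granules 1, 2, 4 and 5.

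HD-induced and control exosomes were then compared, with 3891 entries tested. A single one was called, and it was the only row called among all rows, a share of 0.00552%. This 5068-nucleotide entry (URS000256C3F7_9606), in the 28S window, held 783, 905, 490, 2145 and 689 RPM in control exosomes and no read in any HD exosome library, at least 10321-fold lower (edgeR adjusted p = 0.00843). It held no read in any granule library either, so control exosome reads alone brought it into the set. The 28S window as a whole overlapped between the states, at 1.36 to 3.43% in control and 1.20 to 2.72% in HD exosomes. Another entry of that window, of 5037 nucleotides, held 207, 320, 901, 677 and 507 in control exosomes and 418, 2111, 1588, 0 and 6238 in HD exosomes, with no call (edgeR adjusted p = 0.738). Entries of 5077, 1874 and 5076 nucleotides, which had the smallest p in the higher direction, had adjusted p of 0.22, 0.418 and 0.738 in edgeR. The count was 74 without HD exosome 1, 8 without HD exosome 2, 4 without control exosome 4, 2 without control exosome 2 or 3, and 0 without HD exosome 3.

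HD exosome 2 differed from its group in which entries it held. Its 10 leading entries took 48.9% of all its reads, and 3 entries were enough to reach 0.5 of its reads on the set. The 2249-nucleotide entry alone took 18.7% of the library, against at most 0.484% in the other 18 libraries with HD exosome 4 left aside. Entries of 1993 and 1922 nucleotides took 6.47 and 4.06%, against at most 0.0370 and 0.00522% in those 18. The 9251-nucleotide entry took 4.76% against at most 0.820%, and the 1878-nucleotide entry 2.67% against at most 1.06%. Named protein-coding genes held 8.96% of this library and 46.3 to 55.4% of control exosome libraries. In control granule 2 and HD granule 3 the leading 10 took 19.9 and 14.1%, and 8 of the 10 entries were the same in both.

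HD-induced and control granules were compared over 26370 entries, and none was called by edgeR, as for all rows (0%). At an unadjusted p under 0.05 in edgeR there were 413 of 26370, fewer than the 1 in 20 that chance alone would mark. Of these 150 were higher and 263 lower in HD granules, and they set no entry apart. DESeq2 called 6, all higher. The smallest p belonged to the 3794-nucleotide entry, with 6.34, 3.15, 6.85, 2.45 and 5.50 RPM in HD granules and no read in control granules (edgeR adjusted p = 0.184). It was read in both exosome groups, at up to 21.6 in control and 40.3 in HD exosomes. The 3966-nucleotide entry, with 0.940 to 3.97 in HD granules, and a shorter one (URS0001BF97F0_9606) had the same adjusted p and were at 0 in control granules too. In the lower direction, a pair of 2407 nucleotides held 1.48, 0.917, 2.14, 1.85 and 3.38 in control granules and 0.365 to 0.824 in HD granules, without overlap (log2 fold change -1.41, SE 0.33, edgeR adjusted p = 1). The 2080-nucleotide entry held 0.521 to 0.907 and 0.0530 to 0.419 in the respective groups and was not called either.

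The difference between the HD effects of the compartments, an interaction term over all 20 libraries, was called for 6 of 20420 entries (4 with pairs counted once), against 0.0191% of all rows (0.0167% higher and 0.00238% lower). All 6 had a higher HD effect in granules than in exosomes. That direction did not hold under every setting: DESeq2 called 30 higher and 36 lower, and without a count filter 12 were higher and 7 lower. The smallest p was that of the 2665-nucleotide entry, the match of the SNHG16 model shown above. Control exosomes held 6.28, 4.48, 3.04, 4.90 and 3.96 RPM and HD exosomes none, at least 50.8-fold lower, while control granules held 18.2, 16.6, 26.4, 32.6 and 23 and HD granules 26.1, 20.7, 11.9, 15.2 and 17.8 (edgeR adjusted p = 0.000364). The granule groups overlapped. SNHG16 as a whole gene held 9.90 to 32.6 RPM in control exosomes and 0 to 20.3 in HD exosomes, with a median of 0.277, and its interaction was not called (edgeR adjusted p = 0.707).

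The 9560-nucleotide entry held 0.934, 2.62, 0.658, 0.967 and 2.92 in control exosomes, none in HD exosomes and 3.93 to 7.80 in the granule libraries (edgeR adjusted p = 0.00977). The 5116-nucleotide entry, 1 of a pair in the 28S window, held 1.60, 3.59, 1.89, 3.42 and 7.06 in control exosomes, none in HD exosomes, and 1.54 to 4.91 in granules (edgeR adjusted p = 0.017). In both entries the granule groups overlapped. In HD exosomes 3 counts stand for 0.249, 0.208, 1.52, 2793 and 0.707 RPM, so the absence of such low levels is weakly founded in replicates 3 to 5. In the other direction no entry was called, and those with the smallest p were of 1423, 20425 and 6287 nucleotides (edgeR adjusted p = 0.12, 0.12 and 0.146). Control exosomes held no read of any of them, while HD exosomes held up to 11.7, 1.59 and 2.99 RPM and were at 0 in 2 or 3 of the 5 libraries. Between the exosome groups alone the SNHG16 match did not pass (edgeR adjusted p = 0.0663), nor did the 5116-nucleotide entry (edgeR adjusted p = 0.22). The count was 127 without HD exosome 1, 13, 14 and 12 without control exosomes 2, 4 and 5, and 2 without control granule 2.

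The matches with named transcripts carry a class. Of 53 matched retained-intron entries tested in control cells, 30 were higher in granules and 1 lower, where 33.1% of all rows were higher and 24% lower. Their median log2 fold change of 1.32 lay beside 1.31 over the whole set. Among matched long noncoding RNAs 11 of 28 were higher and 1 lower, among TEC models 12 of 29 and 2, and among transcripts of coding genes without a defined coding sequence 9 of 21 and 4. In HD-induced cells 23 of 64 retained-intron matches were higher and 0 lower, against 17.6 and 3.28% of all rows. Most matches, like most of the set, were chosen through granule reads, so these counts describe them and set no class apart. Only 23 tested matches had 100 reads in each compartment, and in control cells 6 of them were higher in granules and 7 lower. Among these were 5 retained-intron matches, 2 of them higher and 0 lower.

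Single matches were set beside their genes. The entry matched to EIF4A3 held 5.66 to 12.2 RPM in control granules and 0.876 to 1.49 in control exosomes (log2 fold change 2.65, SE 0.20, edgeR adjusted p = 1.79e-06). The EIF4A3 gene as a whole went the other way, at 33.7 to 89.1 in granules and 101 to 138 in exosomes (log2 fold change -1.40, SE 0.12, edgeR adjusted p = 6.18e-06). In HD-induced cells the entry was called higher too (3.72, SE 0.70, edgeR adjusted p = 0.00508), and the gene was not called (-0.87, edgeR adjusted p = 0.109). The entry held 87.0 reads over all exosome libraries, so granule reads brought it into the set.

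Other matches repeated the contrast between entry and gene in part. The match of CLTC, the clathrin heavy chain, was higher in control granules (log2 fold change 2.67, SE 0.41), while the gene did not pass (-0.30, SE 0.16). The match of LRRC41 rose in granules by a log2 fold change of 1.97 (SE 0.30), and the gene fell by 1.55 (SE 0.19). In HD-induced cells the LRRC41 gene did not pass (-0.66, edgeR adjusted p = 0.376). For FAU both were higher in granules, at 2.53 for the entry and 0.75 for the gene. The match of TAF15, an RNA-binding protein gene, did not pass (-0.67, edgeR adjusted p = 0.0583), and the gene fell by 1.87 on the log2 scale in control cells, with no call in HD-induced cells (edgeR adjusted p = 0.0679). The matches of CLTC, LRRC41 and FAU held 59.8, 73.2 and 49.4 reads over the exosome libraries, below the limit of 100, and that of TAF15 held 396. The differences between entry and gene were not tested, the entry shares its reads with its named match, and these genes are among the 20 matches with the most reads, a choice made after the reads were seen.

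Named long noncoding RNAs gave a comparison with known genes. Of 8 listed nuclear long noncoding RNAs, 6 were tested in control cells, and 2 were higher in granules and 0 lower, a share close to the 33.1% of all rows called higher: MALAT1, a nuclear speckle RNA, by a log2 fold change of 0.51 (SE 0.16), and PVT1 by 0.79 (SE 0.27). Of 14 cytoplasmic long noncoding RNAs and snoRNA host genes 12 were tested, and 8 were higher and 1 lower, against 33.1 and 24% of all rows. The host gene GAS5 was higher by 3.06 (SE 0.14) and SNHG1 by 2.70 (SE 0.12), and DANCR was lower by a log2 fold change of -1.36 (SE 0.38). In HD-induced cells 0 of 5 and 5 of 13 were higher, and 0 and 1 lower, against 17.6 and 3.28% of all rows. No listed gene was called between HD-induced and control libraries of either compartment by edgeR.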

How the data were processed

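Per the labels' protocols, total RNA was taken with a mirVana kit and made into stranded libraries. Per the submitters' processing notes, reads were handled with Trimmomatic, cutadapt, FastQC and Salmon against GRCh38.p14, and the sources used here give neither versions nor an annotation release. The deposited files hold estimated counts (expected counts, not whole numbers) and TPM (abundance per length and library), both made by the authors. Reads of near-identical entries are divided by estimation, which can place an exact 0 on one of them.

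Members, size windows and gene lists were chosen with earlier results of these data known. Estimated counts were rounded, and transcripts of a named gene summed, giving 1 row per named gene and 1 per unnamed entry. Rows were kept with filterByExpr, scaled by TMM and tested with edgeR 4.0.16 (robust quasi-likelihood, R 4.3.3), with Benjamini-Hochberg adjustment over all rows and calls at an adjusted p under 0.05. Each comparison of 2 groups used its 10 libraries, and the interaction all 20. The SE is the log2 fold change divided by the root of F. The fit was tested on simulated counts. DESeq2 1.42.0 used size factors from positive counts.

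The text names the 10 entries with the most reads; per comparison and direction the 5 called entries with the largest fold change among those of at least 5 CPM in a group whose libraries did not overlap, or otherwise the 3 with the smallest p; each library's leading entry; and 2 entries on either side of the read limit. Folds against a group without reads are bounds from a floor of 3 counts over the group. That replicates are separate cultures is not stated beyond "biological replicate", so p-values measure the spread between these libraries.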

Additional observations from a re-analysis of the deposited data

Results flagged for a closer look

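Dixon's test for 1 distant library was applied in each group. It was run on the share of reads on the entries and on the levels of the 10 leading entries. Of 44 tests in all, it marked 22. The entries were chosen by their summed reads, which a single high library can raise, and the same libraries recur. The number of marks therefore cannot be set against a rate expected by chance. The share was marked in HD exosome 2 (57.5%), control granule 2 (29.9%) and HD granule 3 (25.1%). Control exosome 3 was the high library for the 13351-, 3636-, 6152- and 3666-nucleotide entries, at 10456, 1934, 1433 and 7173 RPM (reads per 1000000). HD exosome 2 was high for the 2249- and 9251-nucleotide entries, at 187445 and 47636. Control granule 2 was high for 8 entries: 298 at 2249 nucleotides, 40217 at 3659, 28049 at 13351, 14287 at 13317, 21006 at 3636, 18988 at 3666, 18720 at 3627 and 1124 at 9251. HD granule 3 was high for 5: 20143 at 3659, 27725 at 13351, 11453 at 13317, 35160 at 6152 and 11248 at 3666.

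The HD effect differed between compartments by the interaction term for the 2665-, 9560- and 5116-nucleotide entries, with fitted log2 values of 9.53, 8.66 and 9.89. HD exosomes held no read of these entries, so the fitted values depend on the prior count and are no bounds.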

How the results depend on the processing

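Other settings moved these counts of called entries by over 1.5 times. With a minimum of 1000 summed reads, 2570 entries were called in control cells and 1275 in HD-induced cells, as fewer entries were counted, and with a mean of at least 1 RPM 2361 in HD-induced cells. DESeq2 called 862 in HD-induced cells, 83.2% of them higher in granules against 94.9% with edgeR, 6 between granule states and 66 for the interaction. Without a count filter 286 entries were called between exosome states, 3 between granule states and 19 for the interaction. With named transcripts kept separate, 0 were called between exosome states. Without the libraries that stand apart, an alternative added after the data were seen, 6558 of 22741 tested entries were called in HD-induced cells. Between exosome states 3 of 6531 were then called. The cause was not tested. Scaling on named genes alone moved the median log2 fold change of all rows in control cells from 0.37 to 0.80 and that of the entries from 1.31 to 1.74.

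Leaving out 1 replicate gave 5805 to 9293 calls in control cells, 1990 to 6320 in HD-induced cells, 0 to 74 between exosome states, 0 to 1 between granule states (1 without control granule 3) and 2 to 127 for the interaction. The number tested moved too: the lowest and highest counts were of 13127 and 17233 entries in control cells and of 11144 and 19885 in HD-induced cells. Mean shares of reads ranged from 9.40 to 10.5% in control exosomes, 9.98 to 22.6% in HD exosomes, 13.4 to 18.3% in control granules and 10.6 to 14.8% in HD granules. As a share of TPM, the means were 1.96, 6.24, 2.46 and 2.70% in control exosomes, HD exosomes, control granules and HD granules, and as a share of reads on unnamed entries 24, 37.2, 43.5 and 40.3%. From 2000 nucleotides, control exosomes held 7.17% and HD exosomes 12.2%.

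Same-numbered replicates did not pair throughout: correlations of their deviations ran from -0.105 to 0.254, and in no comparison did every library correlate best with its own number. Replicate 5 did so in each comparison of 2 groups, and replicate 1 in all but that of granule states. Replicates 2 and 3 did so in none. Pairing of some replicates is thus not excluded. With the replicate block, 0 entries were called between exosome states and 3 for the interaction, and the other counts stayed within 1.5 times. With it the 2249-nucleotide entry in HD-induced cells had a log2 fold change of -5.56 (edgeR adjusted p = 0.303), the 3659-nucleotide entry in control cells 1.48 (0.146) and the 9560-nucleotide entry an interaction of 8.52 (0.087), none of them called.

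Over single named entries, 1972 values kept their side of the threshold, 34 passed it and 32 lost it. The direction turned for the 3666-nucleotide entry without control granule 2 (-1.51, and up to 1.44 without other single libraries) and for the 5056-nucleotide entry in HD-induced cells without the libraries that stand apart (11.8). Depth limits HD exosomes most: 36 entries had a read in HD exosome 4, against 16050 or more in each control exosome library.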
